A study of Rattus norvegicus with 6 samples.

Results

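NF-kB is a family of dimeric transcription factors that is held in the cytoplasm by inhibitor proteins, and the genes described here encode its subunits (Nfkb1, Nfkb2, Rel, Rela and Relb) and its inhibitors (Nfkbia, Nfkbib, Nfkbie, Nfkbiz and Tnfaip3). These 10 genes were taken by symbol from a table of 32883 gene rows, and each matched 1 row. The table holds polyadenylated RNA of primary hippocampal cultures from Wistar rat pups of postnatal day 0, which are labelled as neurons and also held astrocyte transcripts. After 13 to 15 days in vitro, chemical long-term potentiation (cLTP) was induced in 3 cultures, and 3 were given only DMSO, the solvent. The drugs were forskolin (50 µM), an activator of adenylyl cyclase, rolipram (50 nM), an inhibitor of phosphodiesterase 4, and picrotoxin (200 µM), a blocker of GABA-A receptors. No genotype other than Wistar is named for either group, and the sources used here do not give the time from treatment to harvest. Setting cLTP against DMSO asks which transcripts differ once the cultures are stimulated.

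In resting cells, inhibitors of the IkB family cover the nuclear localisation signal of NF-kB dimers. When the IkB kinase complex phosphorylates an IkB protein, that protein is degraded, and the dimer enters the nucleus and binds kB sites in promoters and enhancers. Several genes of the system are themselves NF-kB targets, so that new inhibitor ends the response. In the nervous system NF-kB is found in neurons and glia, it responds to cytokines as well as to glutamate and depolarisation, and it has been linked to synaptic plasticity and to neuroinflammation.

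The libraries held 10668973 to 12776185 gene-assigned reads, and 17315 genes were tested, those whose normalised read counts averaged 1 or more. A normalised read count is a gene's reads divided by a factor for the library, without division by gene length, so levels are compared between groups and not between genes. The immediate early gene Fos, a check of the stimulation, was at 12472, 9994 and 13158 in cLTP cultures 1, 2 and 3, against 1229, 797 and 489 in DMSO cultures 1, 2 and 3. The markers of neurons and astrocytes were detected in all 6 libraries: the summed level of 8 neuron markers was 51783 to 66139 in cLTP and 51233 to 62188 in DMSO cultures, and that of 8 astrocyte markers was 141801 to 198876 in cLTP and 122478 to 191383 in DMSO cultures. Culture numbers follow the labels, which do not say whether same-numbered cultures of both groups were related. Culture 3 of both groups stood apart in its microglia markers. The sum of 11 such markers was 1062 in cLTP 3 and 1039 in DMSO 3, against 48.5 to 62.8 in the other 4 libraries, where 5 to 7 of the 11 were at 0. Of the 11, 0 passed the limma test between groups and 0 had an unadjusted p under 0.05. The sum of 7 endothelial and mural markers was 114 to 159 in cLTP and 322 to 421 in DMSO cultures, with 0 to 1 of them at 0 in cLTP and 1 to 3 in DMSO libraries. Of these, 5 were tested and 1 passed, Pdgfrb, a receptor gene of pericytes and other mesenchymal cells, at 94.2 ± 24.7 in cLTP and 329 ± 56.2 in DMSO cultures (limma adjusted p = 0.00106). Pdgfrb made up most of the sum in each group, and 2 of the 5 tested markers had a log2 fold change above 0. The part of the microglia, endothelial and mural markers in the results was not tested. In bulk RNA, fewer cells of a type and less RNA per cell cannot be told apart.

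After cLTP, transcripts of Nfkb1, Rel, Nfkbia and Tnfaip3 rose, and none of the 10 genes fell. These 4 of 10 passed an adjusted p of 0.05 in limma (Benjamini-Hochberg over all genes tested), while 5.71% of all tested genes passed as higher after cLTP, 3.31% as lower and 9.02% in either direction. Over all genes these were 988 higher and 573 lower, a split that turned to 823 higher and 1323 lower when libraries were scaled to equal totals, while quantile normalization gave 897 higher and 799 lower. Of the 10 genes, 4 passed with equal totals and 6 with quantile normalization, all higher. The median log2 fold change of the 10 genes was 0.55, and that of all tested genes was 0.0023. The libraries are numbered 1 to 3 in both groups, and same-numbered libraries deviated together across genes, most clearly those numbered 3. With the culture number as a block in the fit, 8 of the 10 genes passed, all higher, and of all tested genes 12.9% passed as higher and 10.7% as lower. The genes added by the block were Nfkb2, Rela, Nfkbie and Nfkbiz, and Relb and Nfkbib did not pass in either fit. All cLTP libraries lay above all DMSO libraries for 8 of the 10 genes, and for 15.0% of all tested genes. Within every culture number the cLTP library lay above the DMSO library for 9 of the 10, all but Relb, and for 27.5% of all tested genes. On recovered whole reads, 5 of the 10 genes passed as higher in edgeR, beside 6.90% of the genes it tested, and 5 in DESeq2, beside 5.09%. None of the 10 passed as lower in either.

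**Figure D1:**
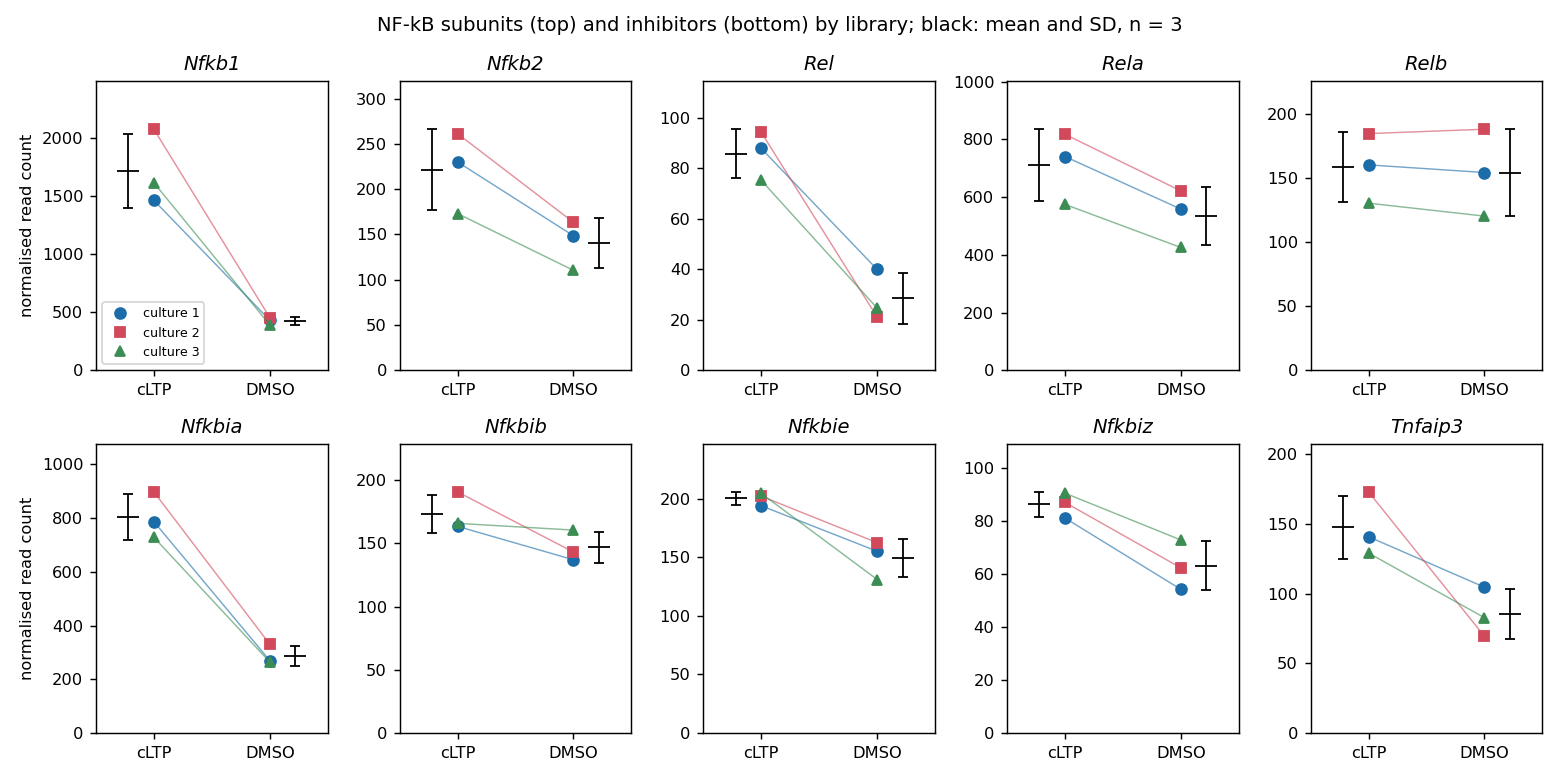
Normalised read counts (vertical axes, each from 0) of the 5 NF-kB subunit genes and the 5 inhibitor genes in cLTP and DMSO libraries, with points joined within a culture number and black bars for mean and SD (n = 3). Nfkb1, Rel and Nfkbia show a wide gap between the groups, Rela and Relb overlap between groups, and the lines of Nfkb2 and Rela keep the same order of cultures in both groups.

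Among the subunits, Nfkb1 had the largest log2 fold change, with an interval that overlapped that of Rel. It encodes the precursor p105, which is processed to the DNA-binding subunit p50 and which, unprocessed, also acts as an inhibitor. Nfkb1 (ENSRNOG00000023258) was at 1464, 2078 and 1617 normalised read counts in cLTP cultures 1, 2 and 3, against 431, 453 and 389.9 in DMSO cultures 1, 2 and 3. Every cLTP library lay far above every DMSO library, and the cLTP libraries differed more among themselves than the DMSO libraries did. The means were 1719.6 ± 319.5 in cLTP and 425 ± 32.0 in DMSO cultures (SD, n = 3 each), a rise of 4.01-fold (log2 fold change 2.00, SE 0.13, limma adjusted p = 2.29e-05). By p it was number 72 of the 17315 genes tested.

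Rel encodes c-Rel, a subunit with a transactivation domain that is best known from lymphocytes and that also occurs in neurons. Rel (ENSRNOG00000054437) was at 87.9, 94.3 and 75.3 in cLTP cultures 1, 2 and 3, against 40.0, 21.1 and 24.6 in DMSO cultures 1, 2 and 3. These values rest on 74 to 91 reads per cLTP library and 24 to 42 reads per DMSO library, so counting noise weighs more here than for Nfkb1. The groups did not overlap, and DMSO 1 was the highest of the DMSO libraries. Rel rose 3.03-fold, to 85.8 ± 9.68 in cLTP against 28.5 ± 10.04 in DMSO cultures (log2 fold change 1.60, SE 0.24, limma adjusted p = 0.00372).

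Rela encodes p65, the main transactivating partner of p50, and Nfkb2 encodes p100, the precursor of the p52 subunit of the non-canonical pathway. Rela (ENSRNOG00000030888) was at 741, 818 and 575 in cLTP cultures 1, 2 and 3, against 558, 622 and 425 in DMSO cultures 1, 2 and 3. The groups overlapped, since cLTP 3 lay below DMSO 2, but within each culture number the cLTP library was higher, by 1.33, 1.32 and 1.35 times in cultures 1, 2 and 3. The fit without the block gave 1.33-fold (limma adjusted p = 0.205), and the fit with the block passed (limma adjusted p = 7.27e-05, log2 fold change 0.41, 95% interval 0.28 to 0.54). Nfkb2 (ENSRNOG00000019311) was at 230.0, 261 and 173 in cLTP cultures 1, 2 and 3, against 148, 163 and 110.3 in DMSO cultures 1, 2 and 3. All cLTP libraries were above all DMSO libraries, and the ratio was 1.55, 1.60 and 1.56 in cultures 1, 2 and 3. The 1.57-fold difference did not pass without the block (limma adjusted p = 0.0739) and passed with it (limma adjusted p = 7.72e-05).

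Relb encodes the transactivating partner of p52. Relb (ENSRNOG00000033235) was at 160.1, 184 and 130.2 in cLTP cultures 1, 2 and 3, against 154, 188 and 120.1 in DMSO cultures 1, 2 and 3. The ranges overlapped almost fully, and within culture numbers the ratio of cLTP to DMSO was 1.04, 0.982 and 1.08. The log2 fold change was 0.048 (limma adjusted p = 0.930), with a 95% interval of -0.37 to 0.47 without the block and -0.17 to 0.27 with it. The sign of this value turned without DMSO 3 (-0.12) and without cLTP 2 (-0.069). With scaling to equal library totals it was -0.068, but that scaling moved the median of all genes to -0.11, and relative to it Relb was at 0.043. A change as large as that of Nfkb1, Rel or Nfkbia lay outside both intervals.

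Among the inhibitors, Nfkbia had the largest log2 fold change. It encodes IkB-alpha, the inhibitor that binds dimers of p50 and p65 and whose resynthesis closes the response. Nfkbia (ENSRNOG00000007390) was at 787, 898 and 728 in cLTP cultures 1, 2 and 3, against 269, 330.1 and 264 in DMSO cultures 1, 2 and 3. The groups were far apart, and the ratio hardly varied between cultures (2.92, 2.71 and 2.75 in cultures 1, 2 and 3). The mean was 804 ± 85.9 in cLTP and 288 ± 36.8 in DMSO cultures, a rise of 2.79-fold (log2 fold change 1.48, SE 0.12, limma adjusted p = 6.70e-05).

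Tnfaip3 encodes A20, a ubiquitin-editing enzyme that shuts off signalling from cytokine receptors to the IkB kinase complex. Tnfaip3 (ENSRNOG00000049517) was at 141, 173 and 129 in cLTP cultures 1, 2 and 3, against 105, 69.4 and 82.7 in DMSO cultures 1, 2 and 3. The groups did not overlap, but the ratio was uneven between cultures, at 1.34, 2.47 and 1.56 in cultures 1, 2 and 3. Tnfaip3 rose 1.73-fold (log2 fold change 0.79, SE 0.18, limma adjusted p = 0.0264; 0.000881 with the block). It did not pass without cLTP 1 (adjusted p = 0.0894), without cLTP 2 (0.0999) or without DMSO 2 (0.0906).

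The other IkB genes differed less. Nfkbie encodes IkB-epsilon, a cytoplasmic inhibitor that acts later than IkB-alpha, and Nfkbiz encodes IkB-zeta, an atypical nuclear member of the family that works as a cofactor of p50. Nfkbie (ENSRNOG00000019907) was at 194, 202 and 204 in cLTP cultures 1, 2 and 3, against 155, 162 and 131 in DMSO cultures 1, 2 and 3. The cLTP libraries lay close together above the DMSO libraries (1.34-fold, limma adjusted p = 0.0559; 0.00604 with the block). Nfkbiz (ENSRNOG00000031163) was at 81.2, 87.1 and 90.5 in cLTP cultures 1, 2 and 3, against 54.2, 62.3 and 72.9 in DMSO cultures 1, 2 and 3. The groups were apart by less than 10 counts at their nearest values, and the 1.37-fold difference passed with the block only (limma adjusted p = 0.124 without and 0.0295 with it).

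Nfkbib encodes IkB-beta, a cytoplasmic inhibitor that is less tied to feedback than IkB-alpha. Nfkbib (ENSRNOG00000020063) was at 163, 191 and 166 in cLTP cultures 1, 2 and 3, against 137, 143 and 161 in DMSO cultures 1, 2 and 3. The lowest cLTP library exceeded the highest DMSO library by only a few counts, and the 1.18-fold difference did not pass (limma adjusted p = 0.301; 0.129 with the block). Its log2 fold change of 0.24 had a 95% interval of -0.031 to 0.51, which lay below the intervals of Nfkb1 (1.71 to 2.29), Rel (1.05 to 2.15) and Nfkbia (1.22 to 1.75).

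**Figure D2:**
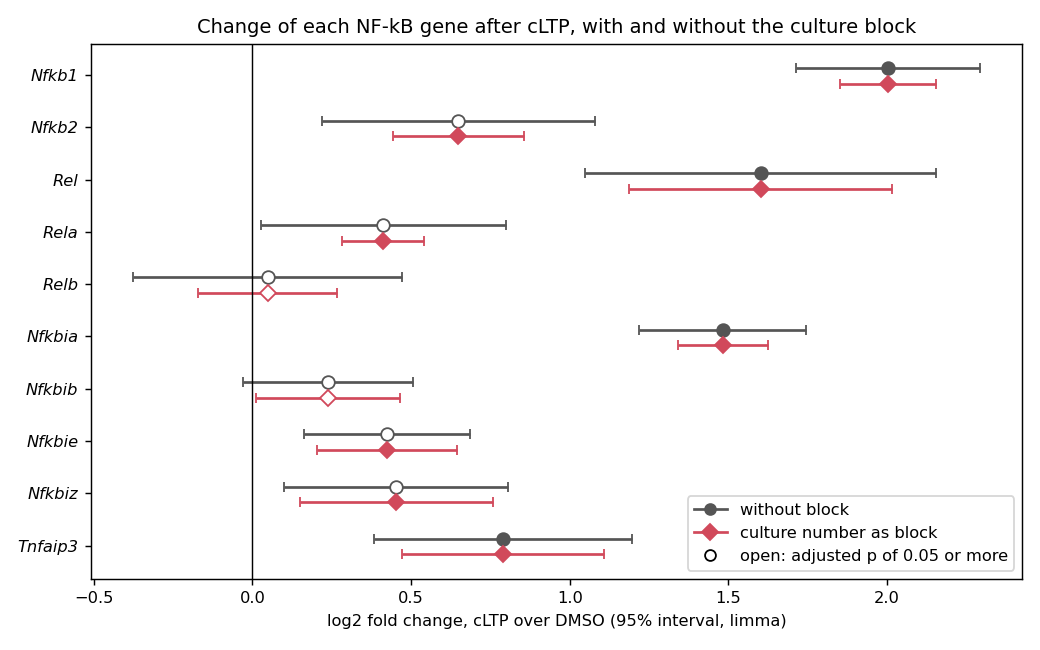
Log2 fold change of cLTP over DMSO for the 10 genes (horizontal axis; bars are 95% intervals from limma), without the block (grey circles) and with the culture number as a block (red diamonds), filled where the adjusted p is under 0.05. The estimates of Nfkb1 (2.00), Rel (1.60) and Nfkbia (1.48) stand apart from the others, and the block narrows the intervals of Nfkb2 and Rela without moving their estimates.

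Nfkb1 and Nfkbia were also set against Rela within the same library. The ratio of Nfkb1 to Rela, on normalised read counts plus 1, was 1.98, 2.54 and 2.81 in cLTP cultures 1, 2 and 3, against 0.772, 0.729 and 0.917 in DMSO cultures 1, 2 and 3. As the values are not divided by gene length, only the difference of this ratio between groups can be read. It was 3.01-fold higher after cLTP (log2 difference 1.59; exact two-sided permutation test over the 6 libraries, p = 0.1, the smallest that 3 against 3 allows). The ratio of Nfkbia to Rela was 1.06, 1.10 and 1.27 in cLTP cultures 1, 2 and 3, against 0.483, 0.532 and 0.621 in DMSO cultures 1, 2 and 3. This ratio was 2.10-fold higher after cLTP (exact p = 0.1), and the groups did not overlap in either ratio.

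Levels also differed between the culture numbers. Rela, Nfkb2, Relb and Nfkbia were lowest in culture 3 of both groups. For Nfkbia, culture 3 was at 0.867 times the level of cultures 1 and 2 in cLTP, and at 0.886 times in DMSO. Rela in culture 3 was 0.739 times its level in cultures 1 and 2 for cLTP, and 0.722 times for DMSO. For Nfkb2 the value was 0.707 in cLTP and 0.710 in DMSO cultures, and for Relb 0.759 in cLTP and 0.708 in DMSO cultures. Over the 10 genes the median log2 difference of culture 3 from the mean of the other two was -0.24 in cLTP and -0.21 in DMSO cultures, beside -0.00074 in cLTP and 0.0058 in DMSO cultures over all tested genes. Nfkbiz went the other way, at 1.08 for cLTP and 1.25 for DMSO. Culture 3 also held the lowest summed astrocyte markers (141801 in cLTP 3 and 122478 in DMSO 3, against 186608 to 198876 in the other libraries) and the microglia markers given before. Its summed neuron markers were the highest of each group (66139 in cLTP 3 and 62188 in DMSO 3). Its summed oligodendrocyte lineage markers were the lowest of each group (2803 in cLTP 3 and 2460 in DMSO 3). The part of these cell type markers in the differences of the 10 genes between culture numbers was not tested.

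**Figure D3:**
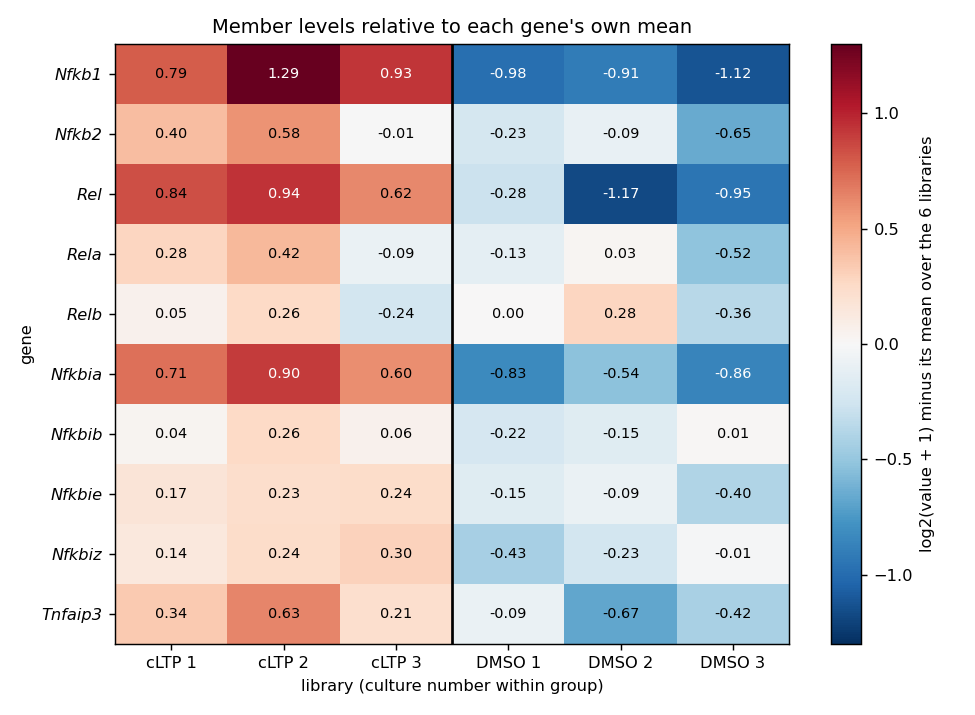
Levels of the 10 genes in each library as log2(value + 1) minus the gene's mean over the 6 libraries (colour and printed number; red is above and blue below the mean), with cLTP libraries left of DMSO libraries. Nfkb1, Rel, Nfkbia, Tnfaip3, Nfkbie and Nfkbiz are positive in the cLTP libraries and negative in the DMSO libraries. Nfkb2, Rela and Relb are negative in culture 3 of both groups.

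In cultures 1 and 2, the summed microglia markers were 48.5 to 62.8, with 5 to 7 of the 11 at 0 and the complement genes C1qa, C1qb and C1qc at 0 to 1.13. In these cultures Nfkb1 was 3.39 and 4.58 times and Nfkbia 2.92 and 2.71 times as high in cLTP as in DMSO. Without culture 3 of both groups, Nfkb1, Nfkb2, Rel, Rela, Nfkbia and Tnfaip3 passed, all higher (6 of 10, beside 6.38% of 17141 tested genes), with log2 fold changes of 1.98 for Nfkb1, 1.61 for Rel and 1.49 for Nfkbia. Nfkbie (0.154) and Nfkbiz (0.112) did not pass there by limma adjusted p. This split of the libraries was chosen after the data were seen. The part of microglia in the changes of the 10 genes was not tested.

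Promoters were available from RefSeq (build GRCr8) for 9 of the 10 genes, as windows of 250 bases before to 50 bases after the annotated start. They were searched on both strands for the kB decamer consensus and for the cyclic AMP response element (CRE), as the palindrome TGACGTCA and as its shorter core TGACG, which every palindrome contains. The 4 genes that passed the test are shown, with Nfkbib, which did not pass and holds no kB match. Nfkb2, Nfkbie and Nfkbiz are not shown. They did not pass without the block, and each holds a kB match. Each sequence runs 5′ to 3′ in the direction of the gene, and capitals mark the kB matches (10 bases each) and the CRE core (5 bases).
Nfkb1, chr2:226805413-226805712, minus strand: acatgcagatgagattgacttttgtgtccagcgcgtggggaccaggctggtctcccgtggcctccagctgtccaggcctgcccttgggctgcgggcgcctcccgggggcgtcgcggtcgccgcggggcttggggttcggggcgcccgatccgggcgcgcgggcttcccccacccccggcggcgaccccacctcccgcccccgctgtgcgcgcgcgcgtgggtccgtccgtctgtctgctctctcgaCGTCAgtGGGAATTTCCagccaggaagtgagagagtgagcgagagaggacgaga
Rel, chr14:101921889-101922188, minus strand: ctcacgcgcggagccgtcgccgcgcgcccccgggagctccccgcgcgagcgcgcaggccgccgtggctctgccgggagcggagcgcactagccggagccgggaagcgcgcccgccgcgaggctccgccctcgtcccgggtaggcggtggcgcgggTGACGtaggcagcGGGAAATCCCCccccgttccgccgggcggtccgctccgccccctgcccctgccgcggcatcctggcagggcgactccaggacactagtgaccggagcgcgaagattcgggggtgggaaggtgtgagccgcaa
Nfkbia, chr6:78597023-78597322, minus strand: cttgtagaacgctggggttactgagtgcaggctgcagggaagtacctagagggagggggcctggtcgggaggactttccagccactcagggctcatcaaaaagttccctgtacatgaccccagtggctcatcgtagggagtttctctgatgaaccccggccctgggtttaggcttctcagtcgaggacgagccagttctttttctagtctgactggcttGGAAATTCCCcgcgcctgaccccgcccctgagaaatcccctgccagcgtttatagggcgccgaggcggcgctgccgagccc
Tnfaip3, chr1:15543930-15544229, minus strand: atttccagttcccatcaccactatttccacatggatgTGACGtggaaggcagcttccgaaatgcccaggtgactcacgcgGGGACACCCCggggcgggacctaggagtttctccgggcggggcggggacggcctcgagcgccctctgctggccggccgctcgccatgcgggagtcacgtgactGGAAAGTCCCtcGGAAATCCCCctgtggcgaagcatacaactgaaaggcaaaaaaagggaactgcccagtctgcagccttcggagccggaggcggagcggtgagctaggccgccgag
Nfkbib, chr1:93181338-93181637, minus strand: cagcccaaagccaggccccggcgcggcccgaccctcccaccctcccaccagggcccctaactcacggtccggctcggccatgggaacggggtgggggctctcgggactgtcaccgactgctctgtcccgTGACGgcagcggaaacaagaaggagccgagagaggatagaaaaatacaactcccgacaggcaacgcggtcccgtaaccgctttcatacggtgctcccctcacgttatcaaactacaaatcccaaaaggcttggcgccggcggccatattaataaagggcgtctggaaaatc

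The kB decamer consensus occurred in 7 of the 9 windows, all but those of Rela and Nfkbib. It occurred in 4.18% of the 33469 windows of the table and in 5.07% of the 12813 windows that matched a tested gene by symbol. Positions count the start as base 1, with no base 0. Nfkb1 held GGGAATTTCC at bases 4 to 13, and Nfkbiz held the same letters at bases -13 to -4. Nfkbia held GGAAATTCCC at -31 to -22 and Nfkb2 held GGGACTTTCC at -20 to -11. Nfkbie held GGGGGATTCC at -164 to -155, farther from the start than these.

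Tnfaip3 held the most matches, 3 in all, of which GGAAAGTCCC and GGAAATCCCC lay close together at -67 to -58 and -55 to -46. In Rel, the plus-strand and minus-strand matches overlapped and cover 11 bases, from -82 to -72, so they count as a single place. The CRE palindrome was found in 0 of 9 windows, beside 2.84% of the windows of tested genes. The core TGACG was found in 6 of 9, those of Nfkb1, Nfkb2, Rel, Rela, Nfkbib and Tnfaip3, beside 28.9%. In Nfkb1 the core (as CGTCA, at -4 to 1) and the kB match are 2 bases apart. The windows of these genes were 57.0% to 77.3% G or C, against a median of 60.3% for tested genes. Of the 4 genes that passed the test, all had a kB match, as did Nfkb2, Nfkbie and Nfkbiz. A match is a stretch of letters, and binding was not measured.

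Of 24 kinases and adaptors that lead to the IkB kinase complex, 1 rose and 1 fell in limma, and the median log2 fold change was -0.16, beside 0.0023 over all tested genes. These counts of calls are near the background, since 5.71% of all tested genes passed as higher and 3.31% as lower. All cLTP libraries lay below all DMSO libraries for 7 of the 24 and above them for 2. Of the 17315 tested genes, 2297 lay below and 2590 above in this way. The log2 fold change was above 0 for 6 of the 24, beside 8722 of all tested genes. Map3k8, a kinase that is held by p105 and released on signalling, was at 9.02, 16.6 and 19.3 in cLTP cultures 1, 2 and 3, against 5.71, 3.51 and 4.92 in DMSO cultures 1, 2 and 3. At this low level it rose 2.71-fold (limma adjusted p = 0.0446; 1.67-fold with a pseudocount of 10), and the call was lost without cLTP 2, cLTP 3, DMSO 1, DMSO 2 or DMSO 3 (limma adjusted p = 0.0726 to 0.146), without culture 3 of both groups (0.138) and in DESeq2 (0.0849). Tab2, an adaptor that links ubiquitin chains to the kinase Tak1, fell to 858 ± 79.1 in cLTP against 1244 ± 207 in DMSO cultures (0.695-fold, limma adjusted p = 0.0380). Its call was lost when any 1 cLTP library, DMSO 1 or DMSO 2 was left out (0.0827 to 0.147). With the block 2 of the 24 were higher and 4 lower, Map3k8 and Tab2 among them, beside 12.9% higher and 10.7% lower of all tested genes. With equal totals 1 of the 24 was higher and 4 were lower, beside 823 higher and 1323 lower of the 17319 genes tested there. That scaling moved the median log2 fold change of all genes to -0.11.

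Of 20 further inhibitors and cofactors, 19 were tested, 3 rose and none fell, beside 5.71% higher and 3.31% lower of all tested genes, and the median log2 fold change was -0.017. Nfkbid encodes another atypical nuclear IkB protein, and it was at 93.6, 72.5 and 79.4 in cLTP cultures 1, 2 and 3, against 30.4, 29.8 and 24.6 in DMSO cultures 1, 2 and 3. It rose 2.82-fold (limma adjusted p = 0.000930). Zc3h12a encodes Regnase-1, an RNase that degrades cytokine mRNAs, and was at 102 ± 6.92 in cLTP and 46.8 ± 9.02 in DMSO cultures (2.18-fold, limma adjusted p = 0.00462). Nkrf, a repressor that binds in the promoters of NF-kB targets, was at 217 ± 22.1 in cLTP and 153 ± 11.4 in DMSO cultures (1.41-fold, limma adjusted p = 0.0299), but lost its call when any 1 of the 6 libraries was left out (0.0574 to 0.113), with equal totals (0.0710) or without culture 3 of both groups (0.0789). With the block 5 of the 19 were higher and 2 lower, beside 12.9% and 10.7% of all tested genes in those directions.

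Of 22 ligands and receptors that signal to NF-kB, 17 were tested and 1 rose, with a median log2 fold change of -0.035. This share is near the 5.71% of all tested genes that passed as higher. Tnfrsf12a, the receptor of the cytokine TWEAK, rose to 341 ± 28.8 in cLTP against 215 ± 51.2 in DMSO cultures (1.61-fold, limma adjusted p = 0.0428), and lost its call when any 1 cLTP library or DMSO 1 was left out (0.0585 to 0.156). The genes below the limit of testing were Tnf, Il1a, Ltb, Tnfsf11 and Tnfrsf13c. Tnf was at 0 in every cLTP library and in DMSO 1 and 2. It was at 3.94 in DMSO 3, which like cLTP 3 held high microglia markers. A value of 0 allows an expected level of up to 3 reads, or 2.63 to 3.38 normalised read counts depending on the library. Transcripts of Tnf at or under that level could have been missed. With the block, 1 gene of the 17 was higher and 1 lower, beside 12.9% higher and 10.7% lower of all tested genes.

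Of 30 genes known as NF-kB targets, 24 were tested, 8 rose and 1 fell, beside 5.71% higher and 3.31% lower of all tested genes. The median log2 fold change of the 24 was 0.12, beside 0.0023 over all tested genes. Many of them also answer to other factors that neuronal activity induces, such as AP-1 and CREB. Il6, a cytokine, was at 65.4, 72.5 and 80.4 in cLTP cultures 1, 2 and 3, against 4.76, 3.51 and 0.985 in DMSO cultures 1, 2 and 3, where it rested on 5, 4 and 1 reads (19.8-fold, limma adjusted p = 0.000177; 6.36-fold with a pseudocount of 10). The chemokine gene Cxcl1 was at 78.9, 80.8 and 189 in cLTP cultures 1, 2 and 3, against 10.5, 6.15 and 7.88 in DMSO cultures 1, 2 and 3 (12.0-fold, limma adjusted p = 0.000319; 6.48-fold with a pseudocount of 10).

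Ptgs2, the inducible cyclooxygenase, rose 4.94-fold, to 1781 ± 371 in cLTP against 379 ± 178 in DMSO cultures (limma adjusted p = 0.00360). The chemokine gene Ccl2 rose 3.56-fold, to 209 ± 79.6 in cLTP against 55.2 ± 7.84 in DMSO cultures. Birc2, an inhibitor of apoptosis that also acts in NF-kB signalling, rose 1.63-fold, to 1410.5 ± 228 in cLTP against 857 ± 46.3 in DMSO cultures. The rest of the 8 were Gadd45b, Ier3 and Ptx3, which are named to complete the count, after their values were seen. The 5 listed targets under the limit of testing were Ccl5, Ccl20, Nos2, Csf2 and Csf3. Irf1, an interferon-regulated transcription factor, fell to 50.7, 46.6 and 57.0 in cLTP cultures 1, 2 and 3, against 202, 188 and 131 in DMSO cultures 1, 2 and 3 (0.305-fold, limma adjusted p = 0.000465). The groups of Irf1 were far apart, in the direction opposite to Nfkbia. Without culture 3 of both groups, Ccl2 (adjusted p = 0.0688), Ptgs2 (0.262), Gadd45b (0.219) and Ptx3 (0.0504) did not pass in limma, and 4 of the list were higher and 1 lower, beside 6.38% higher and 3.66% lower of all genes tested there.

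**Figure D4:**
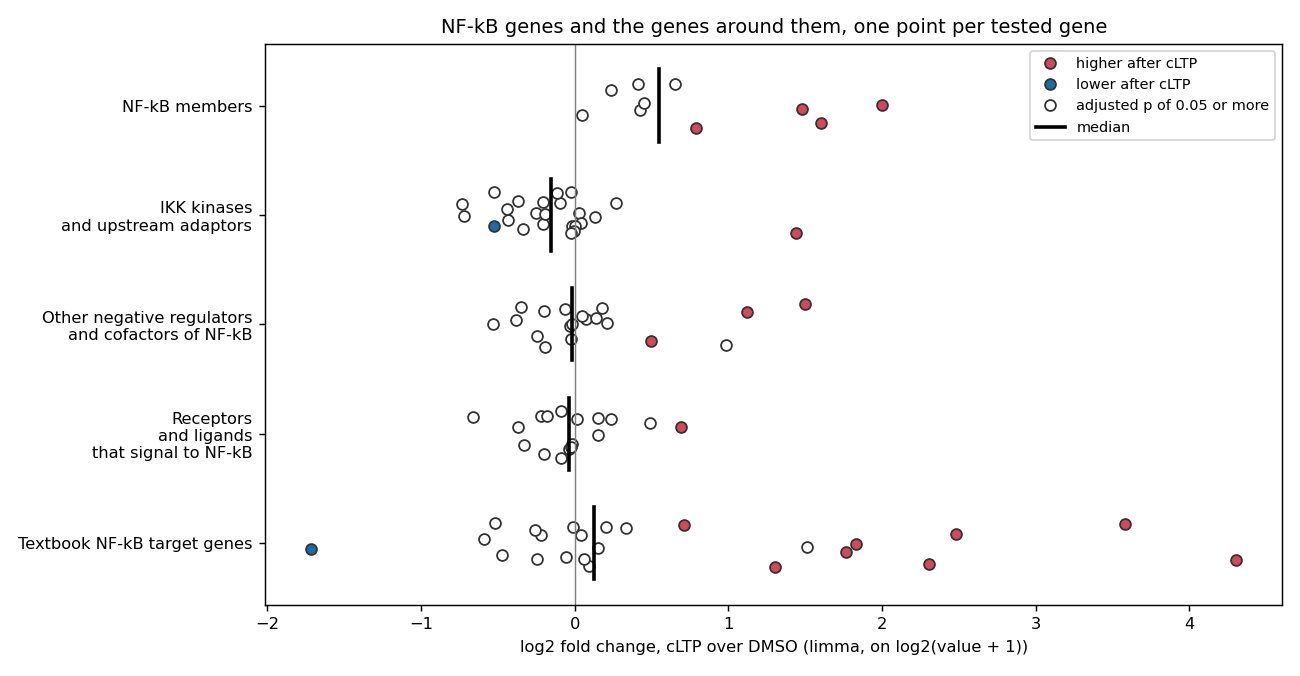
Log2 fold change of cLTP over DMSO (horizontal axis) for each tested gene of the 10 NF-kB members and of 4 lists around them, with red for higher and blue for lower genes past an adjusted p of 0.05, open circles for the rest, and black lines at the medians. The members' median lies at 0.55 and those of the other lists between -0.16 and 0.12, and Irf1 is the blue point at -1.71.

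Nfkb1 was the member of lowest p, and the genes whose levels ran most like it were found by Pearson correlation of log2(value + 1) over the 6 libraries, among 10501 other genes with a mean of at least 100. They were Ogfrl1, Dgat1, Stc1, Coq8b and Eif4a1, with r between 0.9975 and 0.9983. All 5 were higher in cLTP than in DMSO cultures on average, with log2 fold changes from 0.30 (Eif4a1) to 3.69 (Stc1). Their direction was fixed by the choice of genes that run like Nfkb1, so it is not a separate result. Each r comes from 6 points that share the libraries and the split between groups, and describes the shape and not the size of the pattern.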

How the data were processed

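Stranded poly(A) libraries of 6 cultures were analysed, 3 cLTP and 3 DMSO. The labels do not say which litters or days the cultures came from, so a p-value here reflects only how these cultures vary. A passage of the labels' extraction protocol that names sorted cells of operated animals does not match the cultures and was disregarded. The submitters' processing notes list bcl2fastq, STAR, DESeq2 and the rat build rn6; the sources used here name no versions, counting tool or strand setting, so reads of overlapping genes could have been assigned in unknown ways. The deposited values are a signal per gene, namely read counts divided by 1 factor per library, since dividing by what 1 read is worth (0.878 to 1.13 by library) turned 100% of the nonzero values into whole numbers, to within 0.01.

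Because the values are normalised, limma 3.58.1 (R 4.3.3; trend and robust) on log2(value + 1) was the test. Genes needed a mean of at least 1. All p-values are two-sided and adjusted by Benjamini-Hochberg over all genes tested, with a threshold of 0.05; folds on this scale understate changes of low genes. edgeR 4.0.16 and DESeq2 1.42.0 on the recovered whole reads were alternatives, calling 1623 and 1629 genes against 1561. The fits were tested on simulated independent counts with no culture effect, so that test does not bear on the block. Deviations from the group means, over 14095 genes, correlated at 0.40, 0.55 and 0.74 between the libraries numbered 1, 2 and 3. Unlike numbers gave 0.32 (cLTP 2 with DMSO 1) and 0.23 (cLTP 1 with DMSO 2), and -0.43 to -0.59 where a library was number 3. Numbers 1 and 2 were thus told apart less clearly than number 3. This pairing comes from the data, since the labels only share numbers. No libraries of 1 group were duplicates (chi-square divided by its degrees of freedom, 4.01 to 20.0).

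The 10 members and the lists were chosen with earlier results of these data known. Named list genes were up to 5 higher and 5 lower per list by lowest p. Of 8 neuron, 8 astrocyte and 9 oligodendrocyte lineage markers, 0 passed in limma without the block. At an unadjusted p under 0.05 there were 0, 0 and 1. With the block 3 neuron, 3 astrocyte and 1 oligodendrocyte lineage markers were higher, and 1 astrocyte marker was lower. Of all tested genes, 12.9% passed as higher and 10.7% as lower with the block. Leaving out culture 3 of both groups was chosen after seeing the data. Of the listed genes, Saa3, Itgam and Pecam1 were not analysed here. The floor of 3 reads covers counting error only.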

Additional observations from a re-analysis of the deposited data

How the results depend on the processing

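Nfkb1, Rel and Nfkbia kept direction and call in all 16 alternatives, Nfkb1 with log2 fold changes of 1.86 to 2.11, Rel of 1.34 to 1.86 and Nfkbia of 1.37 to 1.58. Tnfaip3 kept its call in 13, losing it without cLTP 1, cLTP 2 or DMSO 2. Nfkb2 also passed in DESeq2 (0.0325), after quantile normalization (0.0476) and without cLTP 3 (0.0311), and Nfkbie in edgeR (0.0490), with a minimum mean of 10 (0.0488) and after quantile normalization (0.0391). Nfkbib did not pass in any of the 16, and Relb passed in none; it turned sign without DMSO 3 (-0.12) and without cLTP 2 (-0.069), and without 1 library its value ranged from -0.12 to 0.20.

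With the culture number as a replicate block, 4075 genes passed in place of 1561, 8 members in place of 4, 6 kinases and adaptors in place of 2, 7 further inhibitors in place of 3 and 2 receptors or ligands in place of 1; the block changed no call of the 4 members that passed without it. Kinases and adaptors past the threshold numbered 1 in edgeR, in DESeq2 and with a minimum mean of 10. With equal totals they numbered 5, where 2146 of all 17319 tested genes passed. Without culture 3 of both groups, 5 target genes passed in place of 9. Leaving out 1 library gave 953 to 1408 genes (953 without DMSO 1, 954 without cLTP 1, 971 without DMSO 2), 3 to 5 members, 0 to 2 kinases and adaptors, 2 further inhibitors, 0 to 1 receptors or ligands and 9 target genes. The ratio differences ranged from 1.48 to 1.74 for Nfkb1 to Rela and from 0.99 to 1.17 for Nfkbia to Rela. The causes were not tested, except that a fit without 1 library has fewer samples. Scaling to equal totals moved the median log2 fold change of all genes to -0.11, so the values of Nfkbib (0.12) and Relb (-0.068, below 0 only through this shift) there read as 0.23 and 0.043 relative to it. Depth limits Rel, with 24 to 42 reads per DMSO library, most among the members.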
